A study of Drosophila melanogaster with 3 samples.

Results

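Among the 6565 reproducible binding regions of the CG3281-GFP fusion protein in Drosophila melanogaster embryos, 1458 had their summit deep inside an intron, far from any start of a protein-coding gene. These far intron peaks were chosen by position alone. The summit, the base with the strongest signal in a region, lay inside a protein-coding gene, in no exon of a protein-coding gene, and over 2000 bp from the nearest protein-coding transcription start site (TSS). They made up 22.2% of the reproducible peaks (95% exact binomial interval 21.2 to 23.2%, counting error over peaks only). The other 5107 peaks comprised 3012 at promoters (summit within 500 bp of a TSS), 1031 in introns nearer to a TSS, 639 in far intergenic and 299 in near intergenic sequence, and 126 in exons away from promoters.

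Chromatin immunoprecipitation and sequencing (ChIP-seq) recovered DNA bound by the fusion protein with an antibody to GFP. The material was whole embryos of mixed sex, 0 to 24 h old, from 1 transgenic line that stably expressed CG3281 with GFP at its C terminus. There were 3 biological replicates, all of that line, age and antibody, and no second genotype, treatment or age, so every comparison is between classes of peaks within the same replicates. Each list of regions for a replicate and for the pooled replicates held 30000 regions, and the read depth behind them is unknown. Signals are the authors' own value for each region, on a different scale in each list: list medians were 33.9 for replicate 1, 38.7 for replicate 2, 43.7 for replicate 3 and 98.3 for the pooled regions. For comparison between replicates, each signal was divided by the median of its list (relative signal). Signal strength in whole embryos cannot tell binding in few cells from weak binding in many.

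Introns of Drosophila genes hold many of the enhancers that switch genes on in particular tissues and at particular stages, most of all the long introns of developmental regulators. Promoter-proximal sequence, by contrast, is open in most cells and is bound by a wide range of factors. A factor bound far from any TSS inside a gene may act on that gene or on a neighbour, and position alone does not tell which. CG3281 is a gene whose product the RefSeq annotation describes only as an uncharacterized protein.

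Of the 15 strongest far intron peaks, all but the one in Lrch (35.6% GC, with 32.7% in its flanks) had lower GC at the summit than in the flanks. Summit windows of 101 bp ran from 13.9% GC in simj to 43.6% in CG32486. The windows of 5 of the 6 strongest are shown so that their A and T runs can be read, together with windows centred 300 bp on either side of the Tlk summit. The window in sbb (32.7% GC), the second strongest, is not shown. All are read from the plus strand of the dm6 assembly (RefSeq genome sequence), with runs of at least 6 A or T bases in capitals. The Tlk summit window is chrX:3742161-3742261, in an intron that is the first of at least 1 transcript, with 26.7% GC and 4 such runs. The Tlk flanks shown are chrX:3741861-3741961 (35.6% GC, also 4 runs) and chrX:3742461-3742561 (48.5% GC, 1 run). In the flanks centred 500 bp away, used in the comparisons, Tlk averaged 39.1% GC. The osa window is chr3R:17700530-17700630 (18.8% GC), the trx window chr3R:14283825-14283925 (28.7%), the simj window chr3L:10682885-10682985 (13.9%) and the Kdm2 window chr3R:9057499-9057599 (16.8%).
Tlk summit: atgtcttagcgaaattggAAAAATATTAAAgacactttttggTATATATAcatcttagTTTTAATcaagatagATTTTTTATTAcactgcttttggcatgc
Tlk flank at -300 bp: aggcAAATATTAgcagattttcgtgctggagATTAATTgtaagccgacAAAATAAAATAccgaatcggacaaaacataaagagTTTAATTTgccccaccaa
Tlk flank at +300 bp: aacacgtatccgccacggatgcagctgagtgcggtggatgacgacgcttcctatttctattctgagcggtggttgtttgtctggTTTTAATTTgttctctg
osa summit: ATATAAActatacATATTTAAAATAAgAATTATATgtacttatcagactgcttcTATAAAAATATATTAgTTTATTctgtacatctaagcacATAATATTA
trx summit: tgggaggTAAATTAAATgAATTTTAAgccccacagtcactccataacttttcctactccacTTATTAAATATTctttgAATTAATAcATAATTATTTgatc
simj summit: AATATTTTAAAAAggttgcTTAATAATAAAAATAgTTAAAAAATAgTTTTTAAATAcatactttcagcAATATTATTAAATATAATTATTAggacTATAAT
Kdm2 summit: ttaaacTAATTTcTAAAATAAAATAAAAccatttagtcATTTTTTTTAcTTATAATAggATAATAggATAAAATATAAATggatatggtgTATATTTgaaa

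Across all 1458 far intron peaks, the summit window averaged 33.0% GC, against 41.3% in flanking windows centred 500 bp away on both sides. The difference was -7.85, -7.66 and -8.55 percentage points at the matching summits of replicates 1, 2 and 3 (mean -8.02 ± 0.466, SD, n = 3). It was negative in 3 of 3 replicates (two-sided exact sign-flip permutation test, p = 0.25, the smallest that 3 replicates allow). Intron sequence that met the same position rule averaged 40.2% GC. The summit window had lower GC than its flanks at 1135 far intron peaks, or 77.8%, where 74.4% of all reproducible peaks did so and 73.4% of the other peaks. The dip itself was therefore shared with the rest of the set: it was -8.25 points at far intron peaks and -8.23 at the other peaks, whose summits averaged 35.2% GC and whose flanks averaged 43.4%.

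**Figure D1:**
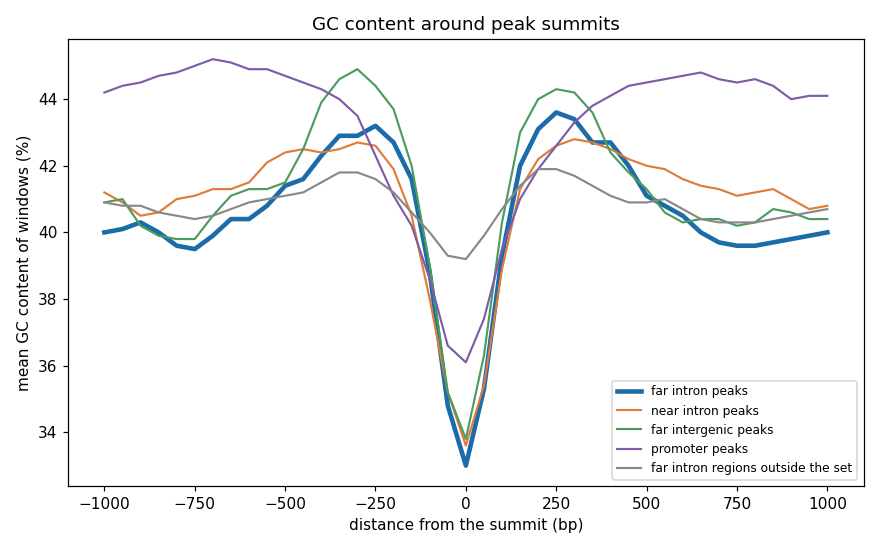
Mean GC content (%) of 101 bp windows against distance from the summit (bp), for far intron peaks (thick line), near intron, far intergenic and promoter peaks, and far intron regions of the pooled list outside the reproducible set. The far intron curve falls to 33.0% at the summit and stands at 43.6% at +250 bp and 43.2% at -250 bp, while the regions outside the set dip far less.

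The dip deepened with signal. With the far intron peaks split into 4 equal classes by pooled signal, summit GC averaged 31.3% in the strongest class, then 32.0, 33.9 and 35.0% in the weakest. The difference from the flanks was -10.5 ± 0.486 points in the strongest class and -5.52 ± 0.646 in the weakest (mean of replicates, SD, n = 3). Far intron regions of the pooled list that did not reach the reproducible set went on in that order, at -4.31 points in their strongest class and -0.202 in their weakest. Around the dip stood a pair of GC-rich shoulders, 43.6% at +250 bp and 43.2% at -250 bp, before GC fell to 40.0% at 1000 bp on both sides. Spearman's rank correlation between pooled signal and summit GC was -0.188 over the 1458 far intron peaks and -0.234 over the 5107 others, a description across peaks that share the same libraries.

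Runs of A and T were more frequent at the summit than beside it. A far intron summit window held 3.02 runs of at least 6 A or T bases on average, against 2.01 in its flanks and 2.11 in eligible intron sequence at large. The other peaks had 2.85 runs at the summit and 1.73 in the flanks. The 10 words of 8 letters with the largest excess at the summits of the other peaks consisted of A and T only. All 10 were more frequent at far intron summits than in their flanks. Runs and words of A and T are not independent of the lower GC at the summit, and no comparison at equal GC was made. AATATTTA stood in 6.93% of far intron summit windows, against 2.06% of flank windows and 2.57% of eligible intron windows of the same length. AAAATATT stood in 7.06%, against 2.85% of flank windows and 3.21% of eligible windows. At the summits of the other peaks these 2 words stood in 5.17 and 5.6% of windows. Most of the 10 words were more frequent at the other peaks, such as ATTTAAAA, at 5.97% against 4.46% of far intron windows. Words were counted on both strands, and the words overlap each other in part.

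Most known motifs of other factors were rare at these summits. A set of 14 was searched as exact letters on both strands. The DRE motif TATCGATA, the site of the promoter factor Dref, was in 1 far intron window, or 0.0686%, against 2.49% of promoter windows and 0.19% of eligible intron windows. GGTCACACT, a core of the promoter element called motif 1, was in 0.137% of far intron windows, against 1.29% of promoter windows. GAGAGAG, the repeat that GAGA factor binds, was in 0.96% of summit windows and 3.22% of flank windows, and the repeat ACACACA in 2.95% and 7.3%. Both simple repeats were thus less frequent at the summit than beside it, also at the other peaks (1.25 and 2.54% for GAGAGAG, 3.31 and 5.89% for ACACACA). Of eligible windows, 1.34% held GAGAGAG, inside the 95% exact binomial interval of its far intron summit share (0.526 to 1.61%). ACACACA was in 4.41% of eligible windows. TGATAAG, bound by GATA factors, was in 3.22% of summit windows, 2.09% of flank windows and 1.21% of eligible windows. Its excess over the flanks, 1.13 percentage points, was 0.372 without replicate 1, 0.634 without replicate 2 and 0.605 without replicate 3. GCATACT, a core of the site of the insulator protein Su(Hw), was in 25 far intron summit windows, or 1.71% (95% exact binomial interval 1.11 to 2.52%), against 0.549% of flank windows and 0.951% of eligible windows. The E box CATATG was in 4.6% and the homeodomain word TTAATTA in 6.1% of summit windows, against 3.74 and 4.53% of flank windows. Eligible windows held them at 2.88 and 4.88%. At the other peaks, summits and flanks held TGATAAG at 2.29 and 1.98% and GCATACT at 1.1 and 0.617%. They held CATATG at 4.09 and 3.32% and TTAATTA at 6.03 and 3.74%. Near intron summits stood above far intron ones for TGATAAG (3.49%), CATATG (5.24%) and TTAATTA (6.69%), and below for GCATACT (0.776%). Far intergenic summits held GCATACT at 2.5%, above the far intron share, and TGATAAG at 2.03%, below it. Another E box, CAGCTG, was in 3.29% of summit and 4.63% of flank windows, and the Caudal word TTTATGG in 2.06% and 3.36%. In eligible windows CAGCTG stood at 3.54% and TTTATGG at 3.19%. The Zelda motif CAGGTAG was in 7 windows and the Grainyhead motif AACCGGTT in 1. Far intron summit windows had lower GC than their flanks on average, and no comparison of these motifs at equal GC was made. A match is a description of letters and not a binding site.

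Far intron peaks held a smaller share of the strongest peaks than of the weaker ones. Of the strongest 10% of the reproducible peaks, 11.1% were far intron peaks, and the share was 17.4, 20.2 and 24.5% in the next 3 classes of that size. It stayed between 23.1 and 26.9% in the weaker 6 classes. In the replicates' own strongest 6565 regions the share in the top 10% was 12.3, 9.74 and 12.3% (mean 11.5 ± 1.49%, SD, n = 3), against 25.5 ± 0.264% in the bottom 10%. Over all 6565 strongest regions of each replicate it was 21.9, 20.3 and 22.8%. In the whole lists of 30000 regions, most of which did not reach the reproducible set, it was 29.6 ± 1.07% (SD, n = 3).

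**Figure D2:**
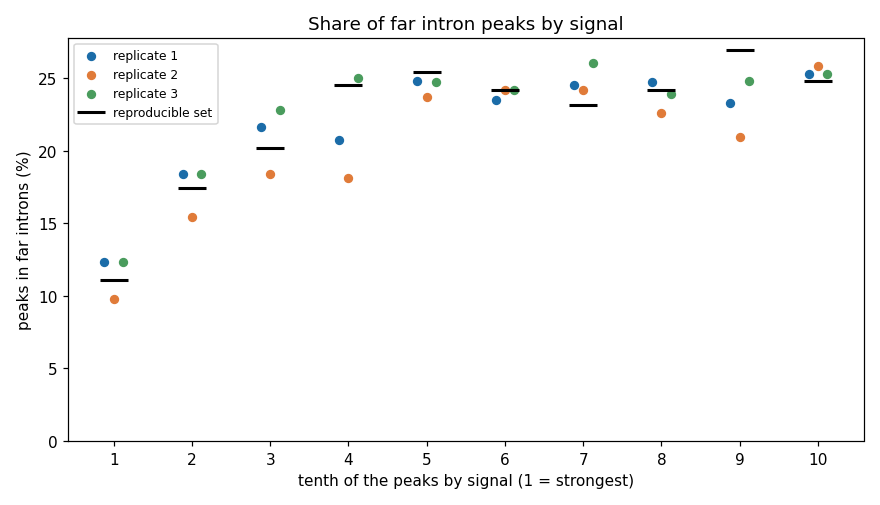
Share of peaks in far introns (%) in 10 equal classes of signal, with class 1 the strongest, for the strongest 6565 regions of each replicate (points) and the reproducible set (bars). In class 1 the replicates stand between 9.74 and 12.3%, below their values in every other class.

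The median relative signal of the far intron peaks was 2.89, 2.60 and 2.99 in replicates 1, 2 and 3 (mean 2.83 ± 0.206, SD, n = 3), against 3.14, 3.13 and 3.21 at the other peaks (mean 3.16 ± 0.0471). Far intron peaks were lower in 3 of 3 replicates, by -0.331 ± 0.172 (exact sign-flip permutation test, p = 0.25). The gap was widest to promoter peaks, at -0.562 ± 0.285, and was -0.27 ± 0.0673 to near intron peaks, with the same sign in 3 of 3 replicates for both (same exact test, p = 0.25 each). Against far intergenic peaks the sign turned, and far intron peaks were higher by 0.165 ± 0.022 in 3 of 3 replicates (exact test, p = 0.25). In all, 9 such differences were tested over the replicates, this one included, and the smallest p adjusted over them by the Benjamini-Hochberg method was 0.375, so none passed 0.05. In the pooled list the median signal was 316 for far intron peaks and 347 for the others, and 71 far intron peaks, or 4.87%, had a signal above 1000, against 11.2% of the others.

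The peak with the highest signal was in Tlk, which encodes the Tousled-like kinase of chromatin assembly, at chrX:3742009-3742413 with its summit 2314 bp from a Tlk TSS. Its relative signal was 34.6, 31.8 and 25.1 in replicates 1, 2 and 3, and its pooled signal of 3445 ranked 42 of 6565. A peak in osa, a subunit of the Brahma chromatin remodelling complex, had 26.3, 22.8 and 25.2. A second osa peak, 3833 bp away in the same intron, had 21.0, 16.3 and 21.9. Both osa peaks were chosen for their pooled signal from these same replicates, so their height above the far intron median of 2.83 in each is no separate result.

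The trx peak, in the gene of the histone methyltransferase Trithorax, had relative signals of 22.4, 21.4 and 23.7 in replicates 1, 2 and 3. In simj, which encodes the p66 subunit of the NuRD remodelling and deacetylase complex, they were 22.3, 21.2 and 23.6. In Kdm2, a histone demethylase gene, they were 17.8, 20.2 and 22.0. In trx and simj replicate 2 was the lowest and replicate 3 the highest. The corepressor gene sbb (scribbler, on 2R) held the second strongest peak, with 28.2, 25.1 and 26.5, and was the highest of all in replicate 3. Another corepressor gene, Gug, the Drosophila Atrophin, had 15.6, 16.3 and 16.3. Others among the 15 strongest were in Pits, named for its product's binding to Ttk69 and Sin3A (18.6, 18.9 and 18.6), in tara, a trithorax-group gene (16.9, 16.9 and 18.5), and in CHES-1-like, which encodes a forkhead factor (mean 18.6 ± 3.2, SD, n = 3). One lay inside the nuclear receptor gene Hr3 and the overlapping genes CG46321 and CG12912 (21.2, 18.2 and 16.7). The remaining ones were in CG32486, CG12769 and Lrch, with pooled signals of 2255, 2141 and 1820. All 15, chosen by pooled signal from these same replicates, were recovered among the strongest regions of all 3 replicates.

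**Figure D3:**
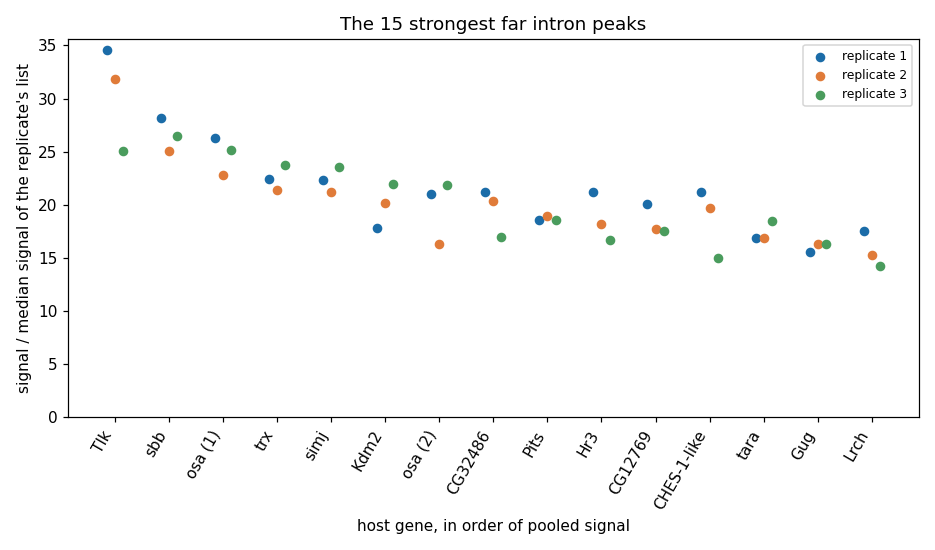
Relative signal (signal divided by the median of the replicate's list) of the 15 strongest far intron peaks in replicates 1, 2 and 3, labelled by host gene and ordered by pooled signal. Every point lies above 14, against a far intron median of 2.83, and the Tlk peak is the highest in replicates 1 and 2. The peaks were chosen by pooled signal from the same replicates.

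Recovery was scored by whether a region among the strongest 6565 of a replicate covered at least 50% of the peak. Far intron peaks were recovered in 80.1, 74.1 and 86.1% of cases in replicates 1, 2 and 3 (mean 80.1 ± 5.97%, SD, n = 3), against 80.4, 82.1 and 84.2% of the other peaks (mean 82.3 ± 1.9%). The difference was -0.329, -7.98 and +1.84 points, so its direction was not the same in all replicates (exact sign-flip permutation test, p = 0.75). All 3 replicates recovered 816 far intron peaks, or 56.0% (95% exact binomial interval 53.4 to 58.5%), where 59.4% of all reproducible peaks were so recovered and 60.3% of the others. Another 428 were recovered in 2 replicates, 200 in 1 and 14 in none. Recovery was lowest at weak signals, where the rule leaves least room. The set is the top 6565 regions of the pooled list, and recovery asks for the top 6565 of each replicate. Weak peaks of the set therefore lie near that limit. In all 3 replicates, 93.2% of far intron peaks in the strongest 10% of the set were recovered, and 1.84% in the weakest 10%. The other peaks stood at 93.5 and 3.85% in those classes. With all regions of each list counted, 92.2% of far intron peaks were recovered in every replicate. Rank correlations between replicates over far intron peaks were 0.686, 0.741 and 0.677 (n = 1404 peaks with a region in every list), and 0.783, 0.789 and 0.758 over the others (n = 4858).

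The strongest far intron peak not recovered everywhere was in raw, a gene of dorsal closure, with a pooled signal of 1473. Its relative signal was 11.7, 12.5 and 13.8 in replicates 1, 2 and 3, so a strong region was present in each, but only that of replicate 3 covered enough of the peak. The next were a second peak in tara (11.0, 13.4 and 14.1) and one in gpp, which encodes the Dot1 histone methyltransferase (11.4, 12.9 and 10.4), both missed by the coverage rule in replicate 1. At the low end, the far intron peaks in tou, Teh1 and cv-2 had a pooled signal of 198, and each was recovered in replicate 3 only.

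Far intron peaks became sparser with distance from a TSS. They numbered 34.5 per Mb of the 42.3 Mb of eligible intron sequence, which made up 31.6% of the chromosome arms, while all reproducible peaks numbered 49.0 per Mb of the arms. Between 2 and 3 kb from a TSS there were 60.6 per Mb in the reproducible set, with 58.5, 58.3 and 59.9 among the strongest 6565 regions of replicates 1, 2 and 3. Between 10 and 20 kb there were 29.3 per Mb, with 28.1, 24.2 and 30.2 in the replicates. Beyond 40 kb there were 17 peaks in 5.87 Mb, or 2.9 per Mb, with 2.73, 2.22 and 2.73 in the replicates. The fall at each of these steps was larger than the spread between replicates. Near introns, which the 2000 bp limit leaves out, had 87.1 per Mb between 1 and 2 kb. The median distance to a TSS was 5407 bp for far intron summits and 8974 bp for eligible sequence.

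**Figure D4:**
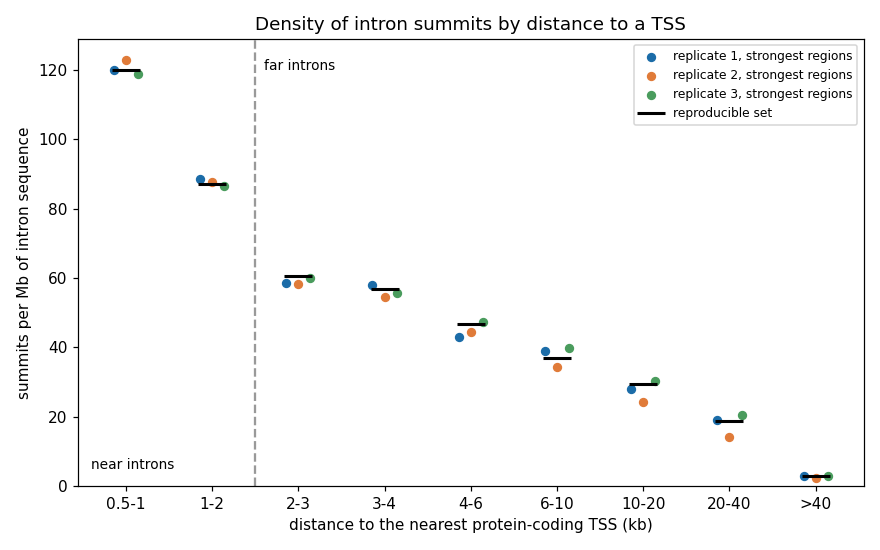
Summits per Mb of intron sequence in classes of distance to the nearest protein-coding TSS (kb), for the strongest 6565 regions of each replicate (points) and the reproducible set (bars); the dashed line marks 2 kb, to the right of which lie the far intron peaks. Density falls at every step, from 60.6 per Mb at 2 to 3 kb down to 2.9 per Mb beyond 40 kb.

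The 3 peaks farthest from a TSS had moderate signals and were recovered in all 3 replicates. A pair lay in hth, the gene of the Hox cofactor Homothorax, 85925 and 76909 bp from a TSS, with relative signals of 4.16, 4.87 and 3.87 for one and 2.44, 2.37 and 3.08 for the other. The other was in Sema1a, which encodes a transmembrane axon guidance protein, at 61650 bp (2.28, 1.86 and 2.69). Just inside the limit of 2000 bp lay peaks in hiw (2002 bp, pooled signal 732), an E3 ligase gene of synapse growth, and in bun (2003 bp, 264), of the TSC22 family. Just outside lay summits in CG46310 (2000 bp, 394) and in Dif (1998 bp, 1316), an NF-kappaB factor gene.

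By chromosome arm, there were 38.6 far intron peaks per Mb of eligible sequence on X, 37.4 on 2L, 36.5 on 3L, 34.4 on 2R and 29.9 on 3R. Chromosome 4, which is largely heterochromatic, had 0 in its 0.451 Mb, which allows a density of up to 6.66 per Mb. Reproducible peaks of all classes were sparse there too, with 19 in 1.35 Mb, or 14.1 per Mb, against 49.0 per Mb over all arms. Annotated transposable element insertions covered 7.83% of eligible sequence, and 0 of 1458 far intron summits lay in one, which allows a share of up to 0.206%. The replicates' own strongest regions gave 2, 0 and 1 such summits, and 13 of the 5107 other peaks (0.255%) lay in an insertion. So did 25 of 7738 far intron regions of the pooled list outside the reproducible set (0.323%). The scarcity was thus shared by all of these lists. How well reads could be placed in repeated insertions was not tested. Elements covered 4.62% of eligible sequence at 2 to 3 kb and 11.0% beyond 40 kb. With insertions taken out of the sequence, the density was 63.5 per Mb at 2 to 3 kb and 3.26 beyond 40 kb. Inside a non-coding RNA gene lay 47 far intron summits, or 3.22%, and 2.56% of eligible sequence. Within 500 bp of the TSS of a non-coding gene lay 30 of them, or 2.06%, and 1.2% of eligible sequence.

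Far intron peaks lay in first introns more often than eligible sequence did, with a median signal close to that in later introns. Of the 1458, 489, or 33.5%, lay in a stretch that was the first intron of every transcript spanning it, against 22.0% of eligible sequence. The share was 33.9, 33.6 and 33.3% in the strongest regions of replicates 1, 2 and 3 (mean 33.6 ± 0.323%, SD, n = 3). Distance moved with this measure, and the share of eligible sequence in first introns was lower in each farther class. At 2 to 3 kb the shares were 46.4% of peaks and 36.2% of eligible sequence, at 3 to 4 kb 35.9% and 32.8%, and at 10 to 20 kb 23.2% and 18.1%. Beyond 40 kb only 1 of 17 peaks lay in such a stretch (5.88%, against 5.34% of eligible sequence). Peaks in first introns had a median relative signal of 2.75 ± 0.172, against 2.76 ± 0.234 in stretches that were a later intron in every transcript (SD, n = 3), a difference far smaller than the spread between replicates.

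Peaks sat in shorter introns than eligible sequence at large. Intron length here is the stretch between neighbouring exons of the shortest host gene, with the exons of all its transcripts merged. An intron of a single transcript can be longer. The intron around a far intron summit had a median length of 11933 bp, against 14838 bp around a base of eligible sequence. Introns over 20 kb held 27.0% of the peaks and 40.0% of eligible sequence. Peaks also lay nearer to a TSS (median 5407 against 8974 bp), and the part of distance in these lengths was not tested. Summits lay at a median of 0.491 of the way along the intron, close to 0.516 for eligible sequence. The nearest TSS belonged to the host gene at 75.7% of the peaks and at 64.6% of eligible sequence, so at the remainder it belonged to a neighbour. As an example, the protein-coding TSS nearest to the stronger osa summit was that of CG31249, 13509 bp away, while the TSS of a non-coding gene lay within 500 bp of it.

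A total of 711 genes hosted the 1458 peaks, which was 16.3% of the 4350 genes with any eligible sequence. Of these, 388 held 1 peak and 323 held 2 or more, and the 69 genes with at least 5 peaks held 452, or 31.0% of all far intron peaks. Genes with more eligible sequence hosted peaks more often: 44.8% of the genes in the longest of 4 equal length classes did so, then 18.4, 2.21 and 0% in the shorter ones. Per Mb, however, the longest class had 31.6 peaks and the next class, with 1.6 to 8.62 kb of eligible sequence, had 60.8. The shorter classes had 31.5 and 0 per Mb, so density did not follow length in 1 direction. In 54 cases the peak lay inside more than 1 host gene.

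At the limit of 2000 bp the host with most peaks was sbb, a nuclear corepressor gene of nervous system and wing development, with 14, of which 11 were recovered in all 3 replicates; at a limit of 1000 bp shn had 15 and sbb 14. With repeated intervals counted once, sbb and Eip75B had 13 each. Eip75B, an ecdysone-induced nuclear receptor gene, had 13 over 73.3 kb, with pooled signals from 203 to 1107 and 8 recovered in all 3 replicates. The zinc finger corepressor gene shn, which acts in Dpp signalling, had 12, and mam, the Notch coactivator gene, had 10. In shn only 4 of 12 and in mam 4 of 10 were recovered in all 3 replicates. Keeping only peaks matched in the other pair of replicates cannot raise a count. By this rule the 1458 far intron peaks became 942 without replicate 1, 1025 without replicate 2 and 909 without replicate 3. In shn 7, 6 and 5 were left in that order. In mam these counts were 6, 8 and 4, in Eip75B 11, 8 and 9, and in sbb 11, 12 and 12. The adhesion gene kirre, of muscle founder cells, had 10 over 310 kb with a median spacing of 13.9 kb, and the strongest of these also lay inside CG32795. It had 6, 7 and 5 without replicates 1, 2 and 3. The wing vein gene px also had 10 (6, 8 and 6 without them), and another 10 lay in the overlapping genes Glut4EF and CG46467, which share them all (7, 8 and 6). Spacing ran down to 0.199 kb in sbb, Eip75B, shn and mam, so these counts include summits close enough to be parts of one bound stretch.

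Among the host groups, BMP and activin pathway genes, receptor tyrosine kinase and Ras pathway genes, and chromatin regulators had the densest far intron peaks. Of 12 BMP and activin pathway genes with eligible sequence, 6 hosted 22 peaks, or 156 per Mb, led by Dad, the inhibitory Smad (4 peaks, strongest pooled signal 1353), shn (12, 844) and sog, the BMP antagonist (3, 537). Of these 22 peaks 10 were recovered in all 3 replicates, and shn alone held 12, of which 4 were so recovered. Of 17 receptor tyrosine kinase and Ras pathway genes, 9 hosted 36 peaks, or 146 per Mb, and 20 of these were recovered in all 3 replicates. Here the leading hosts were pnt, the ETS factor downstream of Ras (8 peaks, 1773), the kinase gene Raf (9, 1708) and aos, the secreted EGF receptor inhibitor (1, 1129). The aos peak also lay inside the overlapping gene CG33158. Both densities stood far above the 34.5 per Mb of all eligible sequence, and their eligible sequence also lay nearer to a TSS, at a median of 5603 and 7310 bp against 8974 bp overall.

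Of 27 listed chromatin regulators with eligible sequence, at a median of only 0.413 kb per gene, 6 hosted 12 peaks, or 139 per Mb. Their median pooled signal was 537, against 316 for all far intron peaks. They included osa (2 peaks), trx (3) and Mi-2, the NuRD remodelling ATPase (4, strongest 1271). The 4 peaks in Mi-2 also lay inside the overlapping gene Su(Tpl). Their share of host genes, 22.2%, stood near the 16.3% of all eligible genes. The list does not hold simj, Kdm2 or gpp, which had 8, 2 and 7 far intron peaks, so its counts do not cover all chromatin genes. It holds several of the strongest peaks, and the median distance to a TSS of its eligible sequence was 5594 bp.

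Nuclear receptor, GATA, Wnt and Hedgehog, Notch and muscle genes stood in between. Among nuclear receptor and ecdysone response genes, 7 of 16 hosted 36 peaks, or 77.5 per Mb, of which 26 were recovered in all 3 replicates; besides Eip75B, Hr4 had 6 (strongest 1408) and Hr3 had 4 (2158). Of the GATA factors and cofactor, 1 of 6 genes was a host (16.7%, near the 16.3% of all eligible genes). This was ush, the Friend of GATA homologue, with 7 peaks (strongest 1106), 3 of them recovered in all 3 replicates. The 79.4 per Mb of the group thus rests on 1 gene. In the Wnt and Hedgehog pathways 4 of 16 genes hosted 17 peaks, or 64.4 per Mb, including arr, the Wnt coreceptor (3, 658), ptc, the Hedgehog receptor (1, 611), and fz2, a Wnt receptor (6, 457). In the Notch pathway 3 of 10 genes hosted 13, or 58.0 per Mb, with 10 in mam, 2 in N (745) and 1 in kuz, the protease that cleaves Notch (200). Muscle genes had 48.3 per Mb in 7 of 15, with kirre (10, 921), the Z-disc gene Zasp52 (2, 623) and the muscle factor gene Mef2 (7, 598).

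Homeotic and segmentation genes were closer to the overall density. Of 9 Hox genes and cofactors, 4 hosted 17 peaks, or 44.6 per Mb, in Abd-B (1, strongest pooled signal 891), Antp (7, 881) and hth (8, 740) among others. Of the 7 in Antp, 6 also lay inside the overlapping gene CG46458. The 4 hosts were 44.4% of the group, at a median of 20.1 kb per gene, beside 44.8% of all genes in the longest length class. Of 7 segmentation genes with eligible sequence 1 was a host (14.3%, near the 16.3% of all eligible genes), namely cad, with 2 peaks (487). Of 11 BTB zinc finger factor genes, with a median of 35.9 kb of eligible sequence, 7 were hosts, beside 44.8% of all genes in the longest class. They had 33.4 per Mb, with bab1 (2, 669), fru (1, 526) and psq (3, 506). Neuroblast and neuronal transcription factor genes had 31.3 per Mb in 4 of 21, in hth, grh (1, 534) and lbl (1, 348) among others. Their share of host genes, 19.0%, was also near 16.3%.

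Far intron peaks were sparsest in ion channel and synapse genes, in genes for RNA-binding proteins of neurons, muscle and germ line, and in axon guidance and adhesion genes. Their eligible sequence per gene had a median of 22.7, 66.4 and 30.0 kb in that order. Hosts were 26.1, 57.9 and 44.4% of their genes, beside 44.8% of all genes in the longest length class. Ion channel and synapse genes had 20.2 per Mb, in 6 of 23 genes, including dnc, the cyclic AMP phosphodiesterase (7, strongest 800), and the potassium channel genes Sh (3, 536) and Shab (1, 391). The RNA-binding protein genes had 21.6 per Mb, although 11 of 19 were hosts, among them shep (3, 885), mbl (3, 756) and Rbfox1 (4, 679). Axon guidance and adhesion genes had 25.5 per Mb, with 16 of 36 as hosts, including the Netrin receptor genes fra (3, 646) and unc-5 (2, 559), and side (3, 599). The eligible sequence of these groups lay far from a TSS, at a median of 11940, 14764 and 11825 bp. The part of distance in the differences between groups was not tested.

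**Figure D5:**
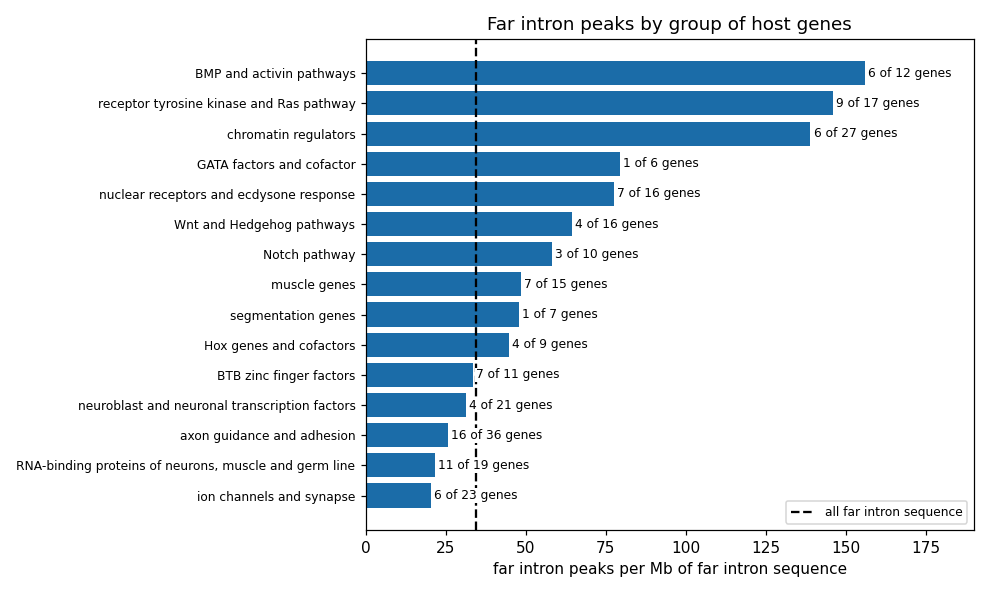
Far intron peaks per Mb of eligible far intron sequence in 15 groups of host genes, with the number of host genes of all genes with eligible sequence beside each bar; the dashed line is the 34.5 per Mb of all eligible sequence. Bars run from 156 per Mb in BMP and activin pathway genes to 20.2 per Mb in ion channel and synapse genes.

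Far intron peaks were a median of 2846.5 bp from the nearest other reproducible peak, against 2555 bp for the other peaks. Among the latter it was 2881 bp for promoter and 1522 bp for near intron peaks. Another peak lay within 1 kb of 23.0% of far intron peaks, against 27.3% of the others, and within 250 bp of 148, or 10.2%, against 12.7%. Among far intron peaks, 24 shared their interval with another entry, and 12 of these were repeats of the same interval with another summit. The median width of far intron peaks was 393 bp, the same as for near intron peaks, against 436 bp for all others. A width of exactly 436 bp was found in 45.7% of far intron peaks and 46.6% of the others. Soft-masked repeat bases made up 22.6% of far intron summit windows, against 21.4% at the other peaks and 23.7% of eligible sequence.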

How the data were processed

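Anti-GFP ChIP-seq of whole embryos was deposited as region lists for 3 biological replicates, for the pooled replicates and for a reproducible set. The authors derived the lists from alignments and a control and the reproducible set by an IDR step, per the labels and file descriptions; which aligner, caller, control and IDR threshold they used is not given in the labels or files at hand. The deposited columns used were the authors' signal value per region, a −log10 q-value, and the summit offset in bp. The reproducible set was the top of the pooled list by signal, with 6565 of 30000 regions, so its own rule already uses signal. Only the dm6 lists were used.

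Summits were classed with Ensembl release 115 (BDGP6), and sequence came from the RefSeq genome of the same assembly. Eligible sequence is every base that meets the position rule, sampled every 500 bases for windows. Windows for motifs and GC covered the summit base and 50 bp on both sides, with flanks centred 500 bp away. Differences were taken within each replicate and tested by two-sided exact sign-flip permutation. Exact binomial intervals and limits from a count of 0 (3 counts) cover counting error only. Named genes are hosts of the 15 strongest peaks, the 8 hosts with most peaks, up to 3 genes with the strongest peaks per host group, the peaks at the distance limit, the 3 farthest and the 3 strongest not recovered in every replicate. The tou, Teh1 and cv-2 peaks and other names were chosen after their values were seen. The peaks, the 15 host groups (307 genes) and the motifs were chosen with earlier results of these data known. A further host group is not reported here. Alternatives covered the distance limit, the annotation, the stronger part of the set, repeated intervals, recovery rules, windows, flanks and each replicate left out. Classification and overlap steps were tested on simulated data. Python 3.11.15, numpy 2.4.6, scipy 1.17.1 and pandas 2.3.3 were used.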

Additional observations from a re-analysis of the deposited data

How the results depend on the processing

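Taking summits over 1000 bp from a TSS, far intron peaks were 30.7% of the set and 41.4 per Mb, in 14.1% of eligible genes, with 40.3% in first introns. Over 5000 bp they numbered 778, 11.9% of the set and 25.8 per Mb, in 401 genes (21.7% of eligible genes), with 26.2% in first introns and a median width of 412 bp; shn then kept 1 of its 12 peaks. With exons and TSSs of all genes the share was 20.9%. Among the stronger 3282 peaks of the set there were 647 far intron peaks, 19.7% of it and 15.3 per Mb, in 410 genes (9.43%), with a median width of 264 bp. Their signal difference from other peaks was then -0.754, the GC difference -9.78 points, recovery in every replicate 86.6%, and the recovery difference turned to 0.566 points, against -2.16 as reported. Recovery in every replicate was 62.5% by any overlap, 92.2% with all regions of each list and 25.5% with the strongest 3282 regions, where the recovery difference was 0.774 points with all regions and -7.78 with 3282. The GC difference was -8.49 points with windows of 25 bp to either side, -6.09 with 100 bp and -6.78 with flanks 1000 bp away.

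Leaving out each replicate in turn, with peaks matched in both others, gave 909 to 1025 far intron peaks (20.7 to 22.4% of those matched, and 21.5 to 24.3 per Mb) in 512 to 563 genes (11.8 to 12.9%). Without replicate 3 the count was 909 and without replicate 1 it was 942. The signal difference lay between -0.496 and -0.381, the GC difference between -9.05 and -8.15 points, the share in first introns between 33.0 and 33.7% and the median width between 288 and 297 bp. The RefSeq annotation gave the same 1458 peaks in number. Counting summits within 500 bp of each other once, an alternative chosen after seeing the data, left 1378 peaks in 710 genes.

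Summit minus flank shares of motifs changed sign in 5 cases, all small: TATCGATA at -0.0643 points over 5000 bp and -0.103 with flanks 1000 bp away, CATATG at -0.146 without replicate 2 (-0.146 to 0.584 over replicates left out), TGACTCA at -0.171 with windows of 100 bp and GCCATNTT at 0.309 with flanks 1000 bp away. Where results changed, the cause was not tested. No paired analysis was possible because the series has 1 group of samples; differences between classes of peaks were taken within each replicate. Region lists without read counts give no depth, and 3 replicates cannot give a p below 0.25.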

Other observations

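Further genes held at least 7 far intron peaks each, and are named here after their values were seen. The nuclear receptor gene ftz-f1 had 9, of which 7 were recovered in all 3 replicates, and bun had 9, of which 2 were. Corepressor and Smad-related genes were among them: Smr, the SMRT-related corepressor, had 7 with a median pooled signal of 544 and a mean summit GC of 26.9%, and Snoo, the Sno oncogene homologue, had 8 with a median of 360. The forkhead gene CHES-1-like had 7 within 16.1 kb, with a median pooled signal of 868, against 316 for all far intron peaks. The Dot1 gene gpp had 7 with a median of 358, and Pdp1, a bZIP factor gene, had 7 with a median of 318. In PRAS40 there were 7 within 4.86 kb, with a median spacing of 0.764 kb. At the other end, the 7 peaks of dnc were spread over 122 kb with a median spacing of 20.0 kb.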
